A study of Mus musculus with 24 samples.

Results

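The genes of fatty acid and triglyceride synthesis were followed in cells sorted from mouse lungs after irradiation, with and without an antibody against neutrophils. The set holds 35 genes, chosen by name for their place in the pathway, at a time when earlier results of these data were known, and all 35 were found among the 48795 gene identifiers of each of the 2 deposited tables. Female Balb/c mice, 8 weeks old, fell into 3 treatments. Mice of the anti-Ly6G group were irradiated on the lungs with 13 Gy and were injected daily with an antibody that binds Ly6G on the surface of neutrophils. Irradiated mice received the same dose with a control IgG, and sham mice received the control IgG with no dose. Lungs were taken 7 days after irradiation, and cells that lacked CD45 (leukocytes), CD31 (endothelium) and Ter119 (red cell lineage) were sorted on EpCAM into an epithelial fraction, which carries it, and a mesenchymal fraction, which does not. The protocol text names CD45 a second time where the cell type entries name CD31. RNA cleared of ribosomal RNA was sequenced from 4 libraries per treatment and fraction, 6 groups and 24 libraries in all, and the labels do not tie the fractions to a mouse. Because no group received the antibody without irradiation, the anti-Ly6G and sham groups differ in both dose and antibody. The gate removes leukocytes, so the loss of neutrophils itself cannot be read from these libraries.

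Cells build fatty acids from citrate that leaves the mitochondrion. Acly splits it to acetyl-CoA, Acaca carboxylates acetyl-CoA to malonyl-CoA, and Fasn joins these units into palmitate. Elovl enzymes lengthen fatty acids, Scd enzymes desaturate them, and Fads1 and Fads2 act on polyunsaturated ones. Acsl enzymes attach coenzyme A. Gpam, the Agpat enzymes and the Dgat enzymes then place fatty acids on glycerol one after another to give triglyceride. Before the Dgat step, the Lpin enzymes remove the phosphate. Pnpla2 starts the breakdown of triglyceride. In the lung, alveolar type 2 cells use palmitate to make the phospholipids of surfactant, and lipid-holding fibroblasts of the alveolar wall store triglyceride.

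Values are normalised counts, gene counts divided by a size factor per library, and each table has its own scale, so levels were compared only within a table. Libraries held 8159062 to 13373329 reads in the epithelial table and 7366672 to 11408083 in the mesenchymal table, and 3 reads were worth at most 3.81 and 3.66 normalised counts. Summed over 10 markers of alveolar type 2 cells, epithelial libraries had 813982 to 920017 normalised counts and mesenchymal libraries 3625 to 11551. The summed 10 fibroblast markers ran from 205729 to 313148 in mesenchymal libraries and from 10619 to 16392 in epithelial libraries. Adipocyte markers were near 0, with sums of 3.59 to 15.4 in epithelial and 11.2 to 46.1 in mesenchymal libraries over 6 genes, and Adipoq and Lep stood at 0 in every epithelial sham library. In bulk RNA of sorted cells, fewer cells of a type and less RNA per cell cannot be told apart.

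In the epithelial fraction the desaturase gene Scd1 and the synthase gene Fasn were the most abundant members, and in the mesenchymal fraction the desaturase genes Scd2, Fads1 and Fads2 were. Per kilobase of exon, sham epithelial libraries averaged 11886 ± 2165 normalised counts of Scd1, 2915 ± 164 of Fasn, 2427 ± 244 of Elovl1 and 2059.9 ± 118 of Scd2 (SD, n = 4). These levels did not overlap from one gene to the next. Below them, Acsl4 at 1464 ± 131 overlapped Acly at 1289.9 ± 56.3, both clear of Acsl5 at 779 ± 38.1. Sham mesenchymal libraries averaged 426 ± 41.0 per kilobase of Scd2, 324 ± 29.6 of Fads1, 200.4 ± 8.21 of Fads2 and 181 ± 7.49 of Fads3, and the first 3 did not overlap the gene after them. From Fads3 down to Slc25a1, 14 genes between 181 and 86.0 per kilobase, each gene overlapped the next.

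At the low end, Elovl3 had reads in 1 of 12 epithelial libraries, at 3.12 normalised counts, and reached at most 1.14 in any mesenchymal library. It passed the filter of 10 normalised counts in at least 4 libraries in neither table, and Thrsp did not pass in the mesenchymal table, where its values were 1.01 to 9.28. The tests therefore covered 34 genes of the set for epithelial cells and 33 for mesenchymal cells. Libraries of a treatment were close to each other for most genes. The median coefficient of variation was 7.30% in anti-Ly6G, 8.72% in irradiated and 8.03% in sham epithelial libraries, and 9.05%, 10.6% and 9.90% in the mesenchymal libraries of the same treatments. Scd1 was an exception in the epithelial table, with 81682, 43054, 78340.3 and 40921 normalised counts in irradiated libraries. Replicates 1 and 3 of that group lay above every other epithelial library, and replicates 2 and 4 below every one. Anti-Ly6G libraries had 50897, 43173, 64998 and 44273 normalised counts of Scd1, and sham libraries had 43952, 57550.2, 61982 and 69105, so the 3 treatments overlapped.

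Start regions are shown for Lpin1, Pnpla2 and Pnpla3, which had the largest called changes against sham in mesenchymal cells among genes with a start region in the RefSeq table. Lpin1 (ENSMUSG00000020593) lies at chr12:16535669-16610966 on the minus strand, Pnpla2 (ENSMUSG00000025509) at chr7:141455198-141460743 and Pnpla3 (ENSMUSG00000041653) at chr15:84167837-84187236, both on the plus strand, all in build GRCm38. Each sequence is taken from RefSeq on GRCm38.p6, reads 5′ to 3′ on the strand of the gene, and spans 250 bases before to 50 bases after an annotated start: chr12:16610917-16611216 for Lpin1, chr7:141454938-141455237 for Pnpla2 and chr15:84167566-84167865 for Pnpla3. Capitals mark GC boxes (GGGCGG on either strand) and the CCAAT box (CCAAT on either strand).
Lpin1: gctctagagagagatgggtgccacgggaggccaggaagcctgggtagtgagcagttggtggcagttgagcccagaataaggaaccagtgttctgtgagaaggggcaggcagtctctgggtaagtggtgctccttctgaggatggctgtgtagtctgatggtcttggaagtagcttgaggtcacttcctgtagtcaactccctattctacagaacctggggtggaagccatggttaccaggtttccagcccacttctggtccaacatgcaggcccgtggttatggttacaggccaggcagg
Pnpla2: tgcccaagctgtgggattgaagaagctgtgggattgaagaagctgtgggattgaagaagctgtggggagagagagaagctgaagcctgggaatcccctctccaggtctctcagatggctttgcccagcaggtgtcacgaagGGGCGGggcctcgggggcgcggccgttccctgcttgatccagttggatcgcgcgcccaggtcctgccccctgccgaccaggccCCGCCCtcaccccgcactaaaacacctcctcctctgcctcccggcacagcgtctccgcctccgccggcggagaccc
Pnpla3: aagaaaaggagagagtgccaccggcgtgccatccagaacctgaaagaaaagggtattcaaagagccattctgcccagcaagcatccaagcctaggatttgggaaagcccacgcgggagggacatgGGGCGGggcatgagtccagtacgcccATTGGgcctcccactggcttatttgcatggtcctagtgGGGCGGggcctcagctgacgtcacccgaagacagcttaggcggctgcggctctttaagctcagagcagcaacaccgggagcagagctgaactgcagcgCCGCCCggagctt
The Pnpla2 window holds 2 GC boxes, the Pnpla3 window 3 GC boxes and 1 CCAAT box, none of them overlapping, and the Lpin1 window has no match to any motif searched. Of the 35 genes, 28 have windows in the RefSeq table, 39 windows in all. A GC box occurs in 24 of the 39 windows (20 genes), against 35.7% of all 32851 windows, and a CCAAT box in 20 (19 genes), against 37.4%. The sterol regulatory element TCACNCCAC, the letters that Srebf1 protein is known to bind, occurs in 2 of the 39 (Acsl1 and Mlxipl) and in 1.24% of all windows. An E-box (CACGTG) occurs in 5 and in 7.15%, and the FOXO site GTAAACA in 2 (Elovl6 and Lpin2) and in 3.65%. The glucocorticoid response element and the PPAR direct repeat occur in 0 of the 39 and in 0.475% and 0.0396% of all windows. Both strands were searched, and these are descriptions of letters, not of binding.

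**Figure D1:**
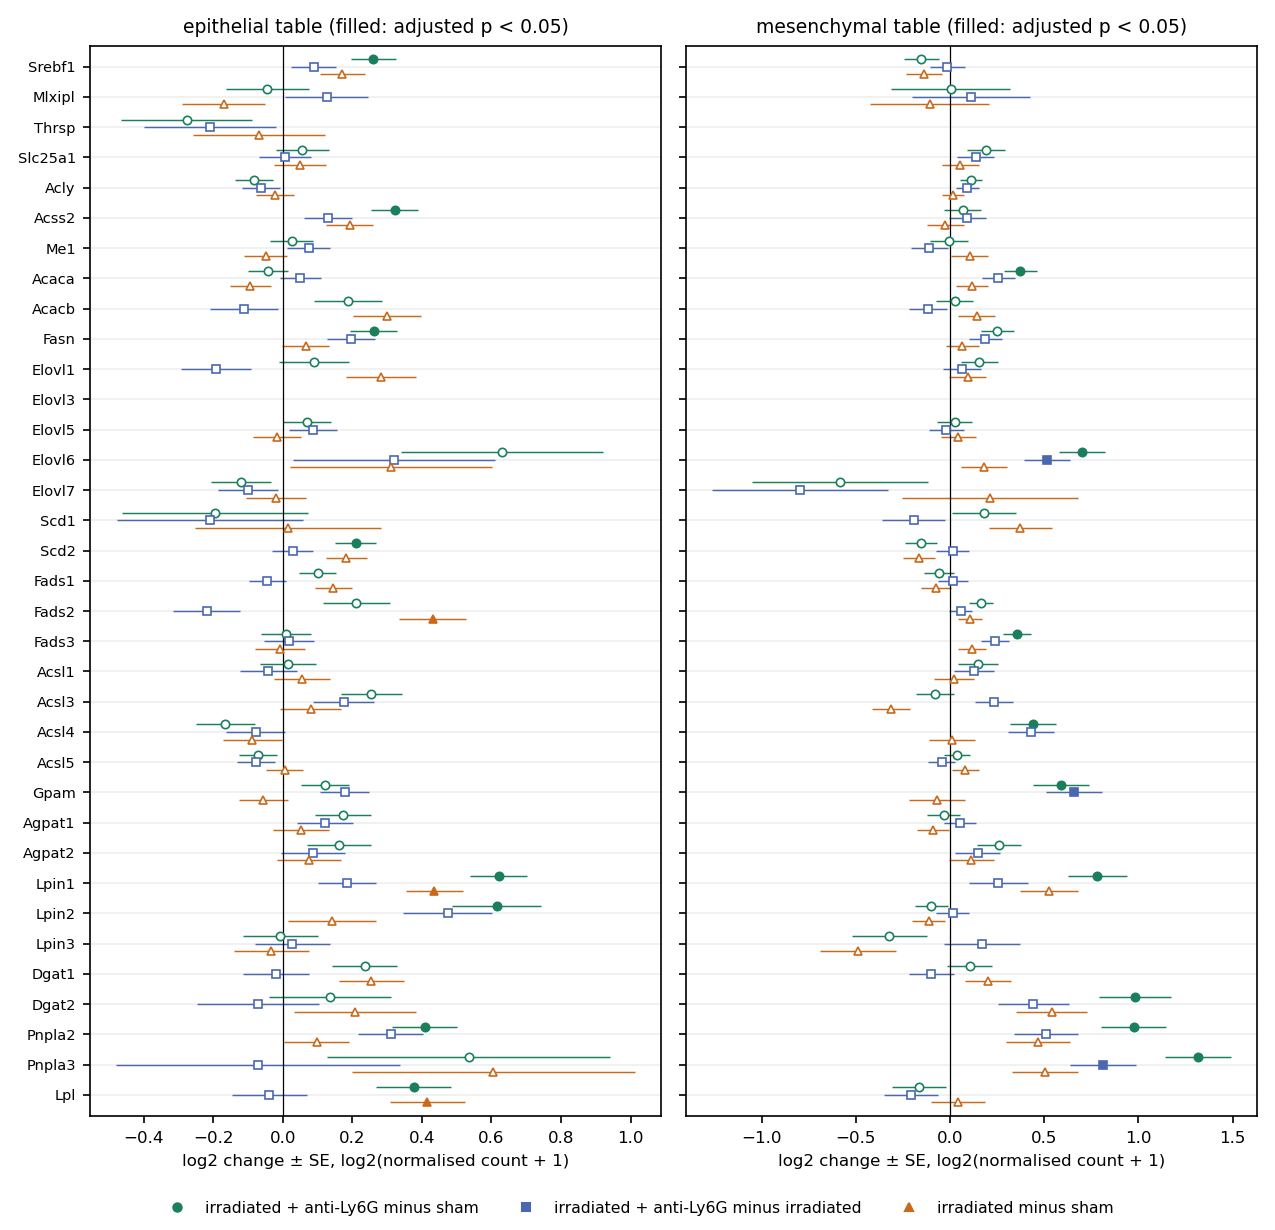
Log2 change with its standard error for each gene of the set in the 3 comparisons of each table, on the log2(normalised count + 1) scale; filled symbols have a limma adjusted p under 0.05. All filled symbols lie right of 0, from 0.21 for Scd2 in epithelial cells to 1.32 for Pnpla3 in mesenchymal cells, both in anti-Ly6G minus sham.

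In epithelial cells, irradiation was followed by higher RNA of the phosphatidate phosphatase gene Lpin1, the desaturase gene Fads2 and the lipoprotein lipase gene Lpl. A gene was called where its adjusted p was under 0.05 in limma, fitted to log2(normalised count + 1) over all genes of a table with Benjamini-Hochberg adjustment over all of them. In irradiated against sham epithelium, 3 of 34 genes of the set were called, all higher, where 3.14% of all 16626 genes tested were called and 2.26% were called higher. The median log2 change was 0.07 over the set and -0.01 over all genes. The 31 genes not called had log2 changes between -0.17 (Mlxipl) and 0.61 (Pnpla3, at a mean of 11.9 normalised counts in irradiated and 7.84 in sham libraries). In 5 of 34 genes every irradiated library lay above every sham library, against 4.94% of all genes. Of the 3 called genes, 1 was called when sham replicate 2, or irradiated replicate 2, was left out.

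Between anti-Ly6G and irradiated epithelium, 0 of 34 genes were called by limma, where 0.475% of all genes were. At an unadjusted p under 0.05 there were 6, against 12.4% of all genes, and 5 of the 6 were higher in anti-Ly6G libraries. edgeR called 0 and DESeq2 1, Lpin2. The set's median log2 change was 0.02 and that of all genes 0.00.

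Between anti-Ly6G and sham epithelium, 8 of 34 genes were called, all higher: the transcription factor gene Srebf1, Acss2 and Fasn of chain synthesis, the desaturase gene Scd2, the phosphatases Lpin1 and Lpin2, and the lipase genes Pnpla2 and Lpl. The background was 11.3% of all genes called and 6.52% called higher. The median log2 change was 0.13 over the set and -0.01 over all genes. In 7 of 34 genes every anti-Ly6G library exceeded every sham library, against 8.76% of all genes. The comparisons with sham share the sham libraries, so their calls are not independent of each other. Elovl6 was called as well without anti-Ly6G replicate 2 (adjusted p = 0.0460) and Acsl3 without sham replicate 4 (adjusted p = 0.0360), and the count was 4 without anti-Ly6G replicate 1 and 5 without sham replicate 3.

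Of the 3 genes that control transcription, Srebf1 was called in epithelium. Srebf1 encodes the sterol regulatory element-binding protein that turns on lipogenic enzymes, Mlxipl the carbohydrate-responsive factor ChREBP, and Thrsp a small lipogenic protein. Srebf1 measured 2704, 2379.5, 2629 and 2441 normalised counts in anti-Ly6G libraries, 2399.7, 2417, 2579.6 and 2158 in irradiated libraries, and 2320.2, 2062, 1979 and 2121 in sham libraries. Every anti-Ly6G library exceeded every sham library, and the irradiated libraries overlapped both. The log2 change from sham was 0.26 ± 0.0644 (SE; limma adjusted p = 0.0142) with anti-Ly6G, a call lost without sham replicate 3 or anti-Ly6G replicate 1 (adjusted p of up to 0.0575). Exons of Srebf1 overlap those of Rai1 on the opposite strand, which averaged 1157 normalised counts, and the strand setting of the counting is not given in the sources used here. Mlxipl ran from 147 to 211 and Thrsp from 28.0 to 52.0 normalised counts over the 12 libraries, and neither was called in any comparison.

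Of the 7 genes that supply precursors and build the chain, Acss2 and Fasn rose in anti-Ly6G against sham epithelium. Acss2 makes acetyl-CoA from acetate in the cytosol and nucleus. It measured 1132, 1056, 1083 and 1147 normalised counts in anti-Ly6G libraries, 919, 1129.9, 986 and 1014 in irradiated libraries, and 922, 794, 882 and 943 in sham libraries. All 4 anti-Ly6G libraries lay above all 4 sham libraries, with a log2 change of 0.32 ± 0.0681 (limma adjusted p = 0.00527). Its exons overlap those of Gss, on the opposite strand, at a mean of 353 normalised counts. Fasn, the multi-step synthase of palmitate, measured 38785, 37270.3, 38275 and 38497 in anti-Ly6G libraries, 30838, 35139.8, 38444 and 29703 in irradiated libraries, and 34576, 31272, 30657 and 31149 in sham libraries. The anti-Ly6G libraries were close together and all above sham, while irradiated libraries spread from below the lowest sham value to near the highest anti-Ly6G value. Fasn's log2 change from sham was 0.26 ± 0.0685 with anti-Ly6G (limma adjusted p = 0.0193), and the call was lost without sham replicate 2, 3 or 4 or anti-Ly6G replicate 1 (adjusted p of up to 0.0661) and with no filter on low values. Acacb, the carboxylase at the outer mitochondrial membrane, measured 523, 508, 611 and 429.5 in anti-Ly6G libraries, 502, 607, 613 and 510.4 in irradiated libraries, and 477, 409.6, 484 and 437 in sham libraries. Irradiated libraries all exceeded sham libraries, but the log2 change of 0.30 ± 0.0983 was not called (limma adjusted p = 0.118). Slc25a1, the citrate carrier, Acly, Me1 and Acaca were not called, with log2 changes between -0.09 and 0.08 in the 3 comparisons.

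None of the 4 elongase genes tested, Elovl1, Elovl5, Elovl6 and Elovl7, was called in epithelium. Elovl1, which lengthens saturated very long chains, measured 6314, 7478, 8345 and 6150.0 normalised counts in anti-Ly6G libraries, 8412, 7851, 8729 and 7173 in irradiated libraries, and 7535, 6539.6, 5945 and 6444 in sham libraries. The 3 treatments overlapped, and its exons overlap those of Cdc20 on the opposite strand, at a mean of 59.3. Elovl6, which lengthens palmitate, was scarce in this fraction, with 12.7 to 33.7 in anti-Ly6G libraries, 16.2 to 20.5 in irradiated libraries and 11.7 to 18.8 in sham libraries.

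Among the 5 desaturases, Fads2 rose after irradiation and Scd2 in anti-Ly6G against sham epithelium. Fads2 encodes the delta-6 desaturase of polyunsaturated fatty acids. It measured 459, 511, 549.6 and 413 normalised counts in anti-Ly6G libraries, 591, 573, 614 and 470.2 in irradiated libraries, and 424, 366, 439 and 434 in sham libraries. Irradiated libraries all lay above sham, and the anti-Ly6G libraries overlapped both groups. The log2 change was 0.43 ± 0.0967 in irradiated against sham epithelium (limma adjusted p = 0.0201), a call lost without sham replicate 2 or irradiated replicate 2 (adjusted p of up to 0.0777). Between anti-Ly6G and irradiated libraries it was -0.22, not called. Scd2, a stearoyl-CoA desaturase that is a close paralog of Scd1, measured 12875, 12659, 14534 and 12057 in anti-Ly6G libraries, 12779, 12692, 13257 and 12294 in irradiated libraries, and 11632, 10294, 11626 and 11468 in sham libraries. Every library of both irradiated groups exceeded every sham library. The log2 change from sham was 0.21 ± 0.0589 with anti-Ly6G (limma adjusted p = 0.0279), lost without sham replicate 2 or 4 or anti-Ly6G replicate 1 or 3 (adjusted p of up to 0.105), and 0.18 ± 0.0589 after irradiation alone, not called (limma adjusted p = 0.111). Reads that fit both Scd1 and Scd2 could have been shared between them, so the split between these paralogs is uncertain. Fads1, the delta-5 desaturase, and Fads3 were not called.

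Of the 4 acyl-CoA synthetase genes, which activate free fatty acids, none was called in epithelium. Acsl4, which prefers arachidonate, ran from 6532 to 7606 normalised counts in anti-Ly6G libraries, from 6577 to 8865 in irradiated libraries and from 7275 to 8787 in sham libraries. Acsl1, Acsl3 and Acsl5 had log2 changes between -0.08 and 0.25. Exons of Acsl3 overlap those of Utp14b on the same strand, and those of Acsl5 overlap Zdhhc6 on the opposite strand.

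The phosphatidate phosphatases, which turn phosphatidate to diacylglycerol, held the largest called epithelial changes. Lpin1 measured 792, 848, 915 and 808 normalised counts in anti-Ly6G libraries, 641, 745, 734 and 848 in irradiated libraries, and 606, 505, 569.8 and 508 in sham libraries. Every library of both irradiated groups exceeded every sham library, while the irradiated groups overlapped each other. The mean was 841 ± 54.9 in anti-Ly6G, 742 ± 84.7 in irradiated and 547 ± 49.2 in sham libraries (SD, n = 4 each). Lpin1 had a log2 change of 0.62 ± 0.0822 in anti-Ly6G against sham (limma adjusted p = 0.000102) and 0.44 ± 0.0822 in irradiated against sham (limma adjusted p = 0.00569), and no single library ended either call. Lpin2 (ENSMUSG00000024052, chr17:71182560-71249817, GRCm38) measured 5906, 5537, 5421 and 8532 in anti-Ly6G libraries, 4232, 4892, 4111 and 4777 in irradiated libraries, and 4389.7, 4104, 3762 and 4054 in sham libraries. All 4 anti-Ly6G libraries lay above all 8 others, and replicate 4 stood far above the other 3. Against sham the log2 change was 0.62 ± 0.127 (limma adjusted p = 0.0103), and against irradiated it was 0.47 ± 0.127, not called (limma adjusted p = 0.144). Without anti-Ly6G replicate 4 these were 0.46 (adjusted p = 0.000414) and 0.32 (adjusted p = 0.0362), so the second was then called. Lpin3 ran from 119.6 to 159 over the 12 libraries and was not called.

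The acyltransferase genes Gpam, Agpat1, Agpat2, Dgat1 and Dgat2 were not called in epithelium. Dgat1, one of the enzymes of the last step to triglyceride, measured 191, 199.6, 197 and 220.2 normalised counts in anti-Ly6G libraries, 177, 194, 237 and 215 in irradiated libraries, and 167, 174, 165 and 179 in sham libraries. Its anti-Ly6G libraries did not overlap sham, yet the log2 change of 0.24 ± 0.0941 was not called (limma adjusted p = 0.121). Gpam, which starts glycerolipid synthesis at the mitochondrion, averaged 3714 ± 162 in anti-Ly6G, 3298 ± 386 in irradiated and 3414 ± 151 in sham libraries. Exons of Agpat2 overlap those of the endothelial gene Egfl7 on the opposite strand.

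Among the lipases, Pnpla2 rose in anti-Ly6G against sham epithelium and Lpl in both irradiated groups against sham. Pnpla2, adipose triglyceride lipase, measured 1850.5, 2034, 1579 and 2228 normalised counts in anti-Ly6G libraries, 1509, 1679, 1535 and 1439 in irradiated libraries, and 1641, 1371, 1319 and 1439 in sham libraries. Anti-Ly6G replicate 3 lay below sham replicate 1, and the other 3 exceeded every irradiated and sham library. The log2 change from sham was 0.41 ± 0.0936 (limma adjusted p = 0.0113), and the 0.31 ± 0.0936 between anti-Ly6G and irradiated libraries was not called (limma adjusted p = 0.165). Without anti-Ly6G replicate 3 that difference was 0.40 and was called (adjusted p = 0.0259). Lpl, which frees fatty acids from lipoprotein triglyceride at the vessel wall, measured 424, 413, 295 and 364 in anti-Ly6G libraries, 432, 403, 362 and 333 in irradiated libraries, and 284, 309.8, 289 and 259 in sham libraries. Irradiated libraries did not overlap sham, and anti-Ly6G replicate 3 fell inside the sham range. Its log2 change was 0.38 ± 0.108 with anti-Ly6G (limma adjusted p = 0.0323) and 0.41 ± 0.108 after irradiation alone (limma adjusted p = 0.0453). Leaving out any of 6 libraries, all sham or anti-Ly6G (sham 1, 3 or 4, anti-Ly6G 1, 2 or 4), ended the first call and any of 8 (every sham library, irradiated 1, 2 or 3, or anti-Ly6G 4) the second, with adjusted p of up to 0.105 and 0.161. Pnpla3, a relative of Pnpla2, stayed at 3.57 to 16.8 over the 12 epithelial libraries.

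**Figure D2:**
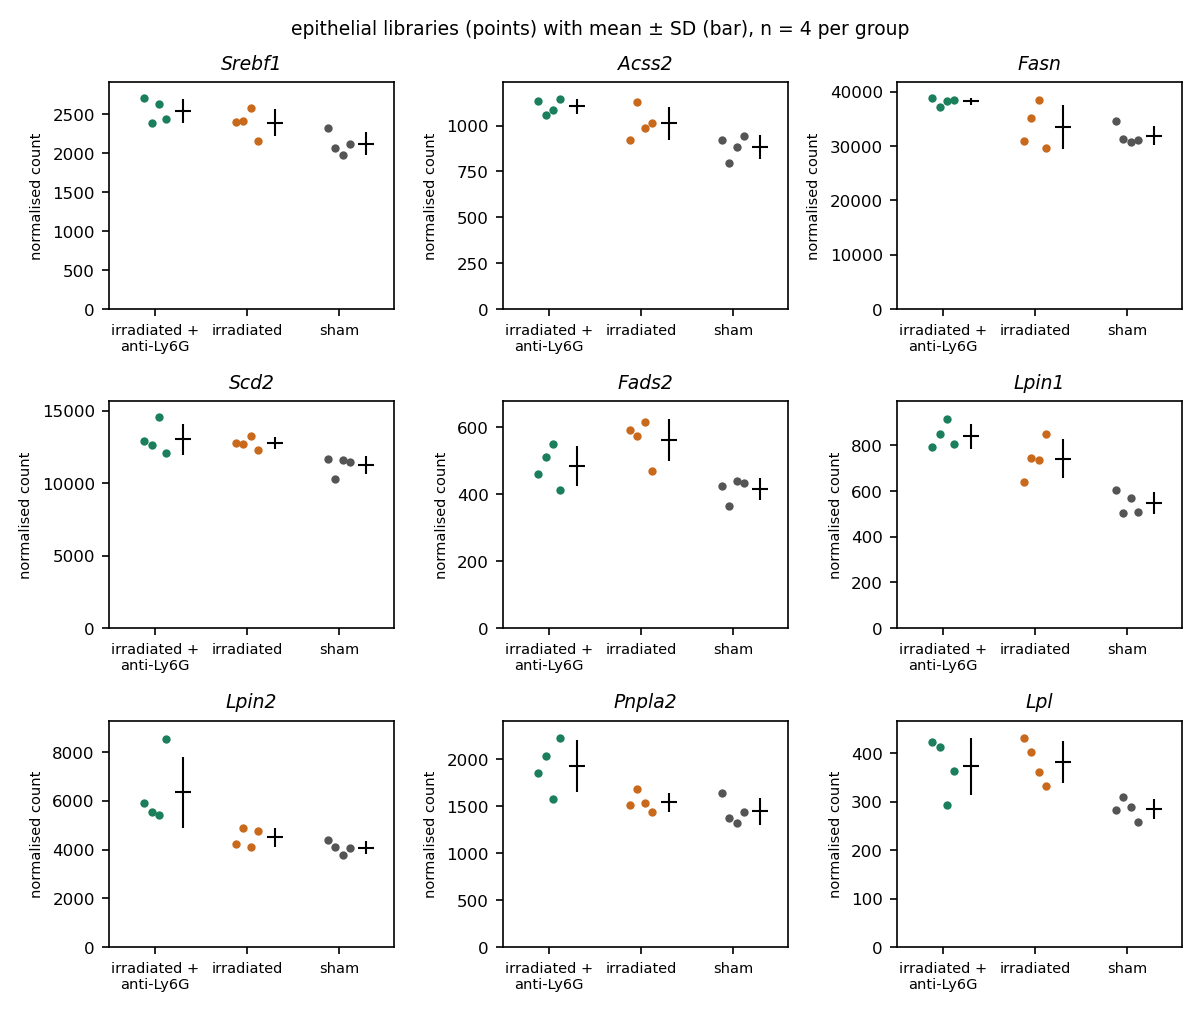
Normalised counts in the 4 epithelial libraries of each treatment (points) with mean ± SD (bars), for the 9 genes called in at least 1 epithelial comparison; every axis starts at 0. Lpin1 and Scd2 separate both irradiated groups from sham, Lpin2 separates the anti-Ly6G libraries from all others, and Fads2 and Lpl are highest on average in irradiated libraries.

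Markers of other cells moved with these epithelial comparisons. In irradiated against sham epithelium, 4 of 11 leukocyte markers tested, 4 of 7 neutrophil markers, 2 of 7 macrophage markers and 5 of 10 endothelial markers were called higher, with median log2 changes of 1.48, 2.10, 1.39 and 1.03. Of all genes, 2.26% were called higher in that comparison. In anti-Ly6G against sham epithelium, 4 of 11 leukocyte, 5 of 7 neutrophil, 3 of 7 macrophage, 2 of 10 endothelial and 5 of 10 fibroblast markers were called higher, where 6.52% of all genes were. Of the markers of the fraction itself, 3 of 10 pan-epithelial markers were called lower there and 1 higher, and 1 of 10 alveolar type 2 and 1 of 8 alveolar type 1 markers were called lower. Summed pan-epithelial markers were 18168 to 19200.4 normalised counts in anti-Ly6G libraries, 17960 to 19132 in irradiated libraries and 19920.2 to 21144 in sham libraries, so both irradiated groups lay below sham. The summed neutrophil markers were 141 to 462 normalised counts in anti-Ly6G libraries, 125 to 469 in irradiated libraries and 13.5 to 57.3 in sham libraries. The summed endothelial markers were 1465 to 2212, 1470.2 to 2855 and 884 to 1229 in the same treatments, and the summed fibroblast markers 14911 to 16392, 12174 to 14412 and 10619 to 11887. Leukocyte sums overlapped, at 2349 to 3277, 3097 to 4043 and 2886 to 3251, with most of each from Lcp1. With the mean log2 level of the 12 leukocyte markers as a covariate, 0 genes of the set were called in irradiated against sham and 1, Lpin1, in anti-Ly6G against sham (log2 change 0.60, limma adjusted p = 0.0140). Calls over all genes dropped in the same fit to 47, against 522 without the covariate, and to 281, against 1876. The set's median log2 change in that fit was 0.129 in irradiated against sham, against 0.071 without the covariate, and 0.165 in anti-Ly6G against sham, against 0.129. Leukocyte markers had median log2 changes of 1.48 and 1.28 in these comparisons, so the covariate moves with treatment. The part of these cells in the results was not tested further.

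In mesenchymal cells, genes of the set were called higher with anti-Ly6G, and irradiation alone gave no call. The lipase genes Pnpla2 and Pnpla3, the acyltransferase genes Gpam and Dgat2, the phosphatase gene Lpin1 and the elongase gene Elovl6 had higher RNA in anti-Ly6G than in sham cells, as did Acaca, Fads3 and Acsl4. In anti-Ly6G against sham cells, 9 of 33 genes of the set were called, all higher, where 15.2% of all 16624 genes tested were called and 8.51% called higher. The median log2 change was 0.11 over the set and -0.01 over all genes. In 9 of 33 genes every anti-Ly6G library exceeded every sham library, against 10.3% of all genes.

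In anti-Ly6G against irradiated mesenchymal cells, 3 of 33 genes were called, all higher: Elovl6, Gpam and Pnpla3. The background was 2.69% of all genes called and 2.02% called higher, and 10 genes of the set, against 17.9% of all genes, had an unadjusted p under 0.05, all higher. The median log2 change was 0.09 over the set and 0.00 over all genes. In 4 of 33 genes the libraries did not overlap, against 6.09% of all genes. The count of called genes, 3 with all libraries, was 0 without irradiated replicate 1 or 3 or without anti-Ly6G replicate 1. It was 1 without irradiated replicate 2 or anti-Ly6G replicate 2 or 4. Without anti-Ly6G replicate 3 it was 5, which added Pnpla2 (limma adjusted p = 0.0241) and Acsl4 (limma adjusted p = 0.0101).

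In irradiated against sham mesenchymal cells, 0 of 33 genes were called by limma, where 3.8% of all genes were. At an unadjusted p under 0.05 there were 7, against 21.0% of all genes, and 5 of the 7 were higher in irradiated libraries. edgeR called 0 and DESeq2 1, Lpin1. The largest log2 changes were 0.54 for Dgat2, 0.53 for Lpin1 and 0.51 for Pnpla3 on the higher side, and -0.49 for Lpin3 and -0.31 for Acsl3 on the lower side. The set's median was 0.06 and that of all genes -0.01. With 1 library left out, Lpin1 was called without irradiated replicate 1 or anti-Ly6G replicate 4 (adjusted p = 0.0332 and 0.0438), Scd1 without irradiated replicate 4 (adjusted p = 0.0310) and Acsl3, lower, without irradiated replicate 3 (adjusted p = 0.0391).

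The genes that control transcription were not called in mesenchymal cells. Srebf1 averaged 691 ± 44.7 normalised counts in anti-Ly6G, 699 ± 65.6 in irradiated and 772 ± 104 in sham libraries, and Mlxipl ran from 10.1 to 26.6. Of the 7 genes of precursor supply and chain synthesis, Acaca, the cytosolic acetyl-CoA carboxylase, was called. It measured 952, 1023, 944 and 1277 in anti-Ly6G libraries, 945, 863, 871 and 811 in irradiated libraries, and 765, 803, 824 and 822 in sham libraries. Anti-Ly6G libraries all exceeded sham, and anti-Ly6G replicate 3 lay just under irradiated replicate 1. The log2 change from sham was 0.37 ± 0.0874 (limma adjusted p = 0.00933). Fasn averaged 1907 ± 211 in anti-Ly6G, 1672 ± 145 in irradiated and 1597 ± 89.7 in sham libraries and was not called (log2 change from sham 0.25, limma adjusted p = 0.0650), though DESeq2 called it (adjusted p = 0.0364), as did limma without irradiated replicate 4 (adjusted p = 0.0476) or anti-Ly6G replicate 3 (adjusted p = 0.0142).

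Elovl6 (ENSMUSG00000041220, chr3:129532355-129638495, GRCm38), which extends palmitate to stearate, rose against both other treatments. It measured 231, 254, 205 and 236 normalised counts in anti-Ly6G libraries, 149.6, 168, 147 and 181 in irradiated libraries, and 150.1, 109, 155 and 158 in sham libraries. No anti-Ly6G library overlapped any other library. The log2 change was 0.70 ± 0.122 against sham (limma adjusted p = 0.00133) and 0.52 ± 0.122 against irradiated cells (limma adjusted p = 0.0342). No single library ended the call against sham, while the call against irradiated cells was lost without irradiated replicate 1, 2 or 3 or anti-Ly6G replicate 1, 2 or 4 (adjusted p of up to 0.0996). Elovl1, Elovl5 and Elovl7 were not called, and Elovl7 was near the detection floor with 2.05 to 15.9.

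Of the desaturases, Fads3 was called, and the more abundant Scd2, Fads1 and Fads2 were not. Fads3, a desaturase that acts on sphingoid bases, measured 813, 891, 829 and 989 normalised counts in anti-Ly6G libraries, 681, 769, 764 and 766 in irradiated libraries, and 723, 659, 669 and 694 in sham libraries. The anti-Ly6G libraries exceeded all 8 others. The log2 change was 0.36 ± 0.0728 against sham (limma adjusted p = 0.00412) and 0.24 ± 0.0728 against irradiated cells, not called (limma adjusted p = 0.0968). Fads2 measured 721, 719, 796 and 724 in anti-Ly6G libraries, 753, 689, 720.1 and 685 in irradiated libraries, and 645, 631, 678 and 688 in sham libraries. Its anti-Ly6G libraries did not overlap sham, but the log2 change of 0.16 ± 0.0629 was not called (limma adjusted p = 0.0920). Scd2 measured 2063, 2182, 2013 and 2085 in anti-Ly6G libraries, 2381, 2074, 2008 and 1837 in irradiated libraries, and 2246, 2046, 2509 and 2505 in sham libraries. Fads1 measured 1398, 1407, 1592 and 1589 in anti-Ly6G libraries, 1602, 1375, 1461 and 1477 in irradiated libraries, and 1549.8, 1367, 1704 and 1613 in sham libraries. The treatments overlapped for both genes.

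Acsl4 was the called synthetase. It measured 421, 435, 329.5 and 520.1 normalised counts in anti-Ly6G libraries, 298, 363, 293 and 299 in irradiated libraries, and 347, 333, 292 and 274 in sham libraries. Anti-Ly6G replicate 3 fell among the sham libraries, and the other 3 lay above all irradiated and sham libraries. The log2 change from sham was 0.44 ± 0.123 (limma adjusted p = 0.0245), lost without sham replicate 3 or 4 or anti-Ly6G replicate 1, 2 or 4 (adjusted p of up to 0.0750). Acsl1, Acsl3 and Acsl5 were not called.

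In glycerolipid assembly, Gpam of the first step, Lpin1 of phosphatidate removal and Dgat2 of the last step were called against sham. Gpam (ENSMUSG00000024978, chr19:55067268-55127238, GRCm38), glycerol-3-phosphate acyltransferase, measured 1570.0, 1689, 1512 and 2566 normalised counts in anti-Ly6G libraries, 1039, 1135, 1080.2 and 1305 in irradiated libraries, and 1114, 1171, 1094 and 1404 in sham libraries. Every anti-Ly6G library exceeded every other, and replicate 4 stood far above the other 3. The log2 change was 0.59 ± 0.147 against sham (limma adjusted p = 0.0172), lost without sham replicate 3 (adjusted p = 0.0553), and 0.66 ± 0.147 against irradiated cells (limma adjusted p = 0.0336), lost without irradiated replicate 1, 2 or 3 or anti-Ly6G replicate 1 or 2 (adjusted p of up to 0.0872), with no filter on low values, and when these 2 treatments were fitted alone. Lpin1 measured 627, 549, 502 and 784 in anti-Ly6G libraries, 392, 649.9, 452 and 577 in irradiated libraries, and 339.8, 352, 344 and 375 in sham libraries. Both irradiated groups lay wholly above sham and overlapped each other. Its log2 change from sham was 0.78 ± 0.156 with anti-Ly6G (limma adjusted p = 0.00495) and 0.53 ± 0.156 after irradiation alone, not called (limma adjusted p = 0.0772). Dgat2 (ENSMUSG00000030747, chr7:99153658-99182719, GRCm38), a diacylglycerol acyltransferase, measured 152, 121, 101 and 144 in anti-Ly6G libraries, 75.3, 89.9, 123 and 92.7 in irradiated libraries, and 75.1, 60.4, 46.4 and 80.7 in sham libraries. Anti-Ly6G libraries exceeded all sham libraries and overlapped the irradiated ones. Dgat2 rose by a log2 change of 0.98 ± 0.190 against sham (limma adjusted p = 0.00276). Lpin2, Lpin3, Agpat1, Agpat2 and Dgat1 were not called.

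The lipase genes Pnpla3 and Pnpla2 were among the largest called changes of the set, and Lpl was not called. Pnpla3 encodes a lipid droplet protein with hydrolase activity. It measured 144, 126, 134 and 181 normalised counts in anti-Ly6G libraries, 66.0, 108, 69.2 and 92.7 in irradiated libraries, and 50.7, 67.9, 49.5 and 64.9 in sham libraries. No anti-Ly6G library overlapped any other, and irradiated replicate 1 fell inside the sham range. The means were 147 ± 24.4, 84.0 ± 20.0 and 58.2 ± 9.48 (SD, n = 4 each) in anti-Ly6G, irradiated and sham libraries. Its log2 change was 1.32 ± 0.175 against sham (limma adjusted p = 0.000145) and 0.81 ± 0.175 against irradiated cells (limma adjusted p = 0.0221), and only the second call was lost without single libraries (irradiated 1 or 3, anti-Ly6G 1 or 4, adjusted p of up to 0.0842). Pnpla2 measured 707, 553, 430.1 and 707 in anti-Ly6G libraries, 314, 483, 423 and 451 in irradiated libraries, and 286, 356, 260.5 and 299 in sham libraries. Anti-Ly6G libraries all exceeded sham, and irradiated libraries overlapped both. The log2 change from sham was 0.97 ± 0.171 (limma adjusted p = 0.00241). Against irradiated cells it was 0.51, not called (limma adjusted p = 0.139). Lpl averaged 1141 ± 207 in anti-Ly6G, 1319 ± 242 in irradiated and 1274 ± 168 in sham libraries.

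**Figure D3:**
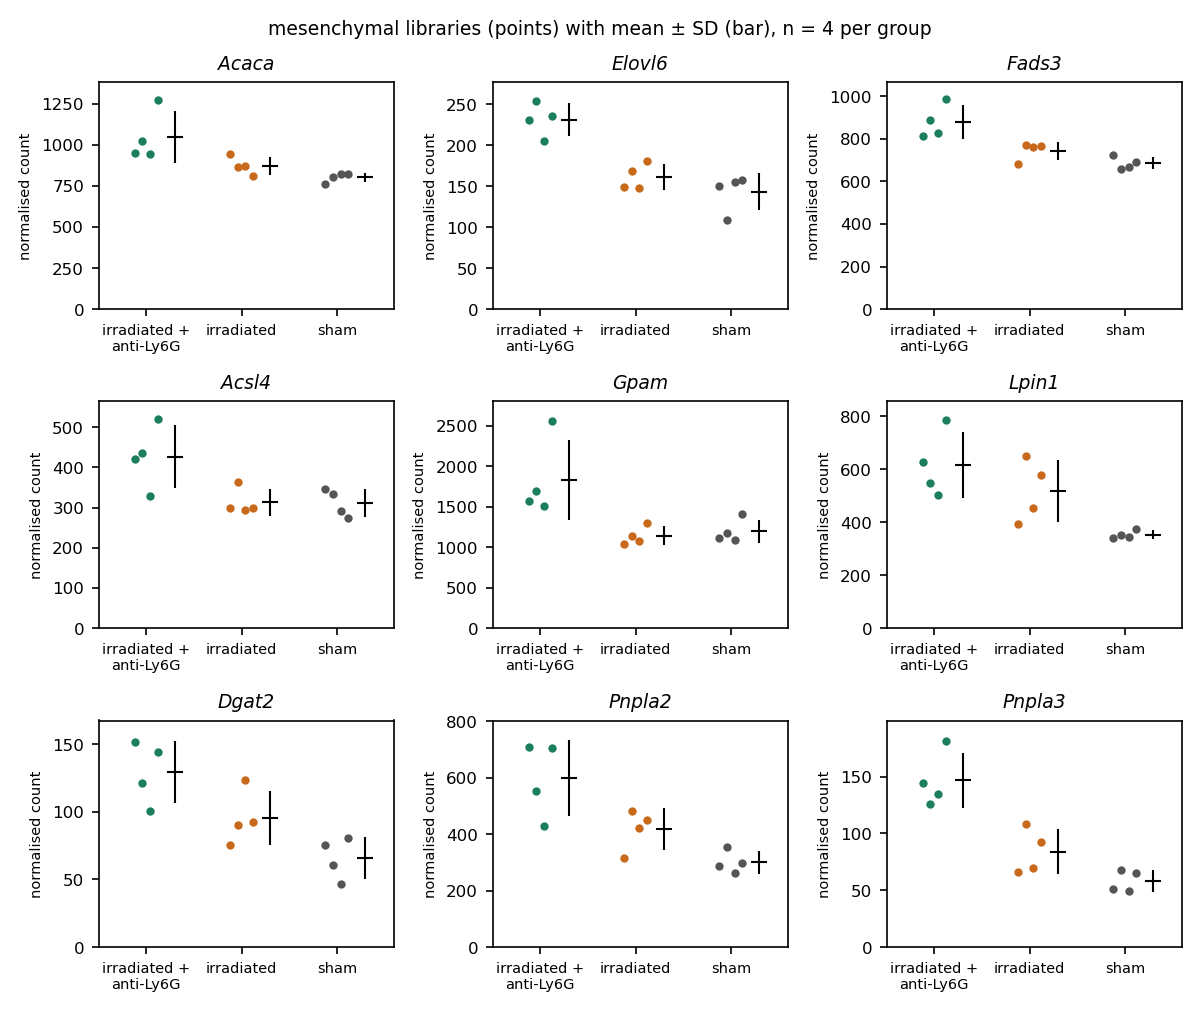
Normalised counts in the 4 mesenchymal libraries of each treatment (points) with mean ± SD (bars), for the 9 genes called in at least 1 mesenchymal comparison; every axis starts at 0. The anti-Ly6G libraries lie above all other libraries for Elovl6, Fads3, Gpam and Pnpla3, and for Lpin1 both irradiated groups lie above sham.

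Some markers of other cells were also called higher in the irradiated mesenchymal groups than in sham. In anti-Ly6G against sham, 2 of 11 leukocyte, 6 of 11 macrophage, 4 of 7 neutrophil, 1 of 10 endothelial, 4 of 9 pan-epithelial, 4 of 8 alveolar type 1 and 0 of 10 alveolar type 2 markers tested were called higher, where 8.51% of all genes were. In irradiated against sham, 3 of 11 leukocyte, 3 of 11 macrophage, 4 of 7 neutrophil, 0 of 10 endothelial, 1 of 9 pan-epithelial and 0 of 8 alveolar type 1 markers were called higher. Of all genes, 3.8% were called there in either direction. In the same comparison, 1 of 10 alveolar type 2 markers was called higher, and all 10 had log2 changes above 0 (median 0.80). Summed alveolar type 2 markers were 6261 to 8980 normalised counts in anti-Ly6G libraries, 7234 to 11551 in irradiated libraries and 3625 to 7400 in sham libraries. Their share in mesenchymal levels of Scd1 and Fasn was not tested. In anti-Ly6G against irradiated, 0 leukocyte, macrophage or endothelial markers were called and 2 of 7 neutrophil markers were called lower. Neutrophil markers did not move as 1 there, since 3 of the 7 had log2 changes above 0. Their sums overlapped, at 230 to 641 normalised counts in anti-Ly6G libraries and 337 to 719 in irradiated libraries, with 85.6 to 277 in sham libraries. Summed leukocyte markers were 933 to 2024 normalised counts in anti-Ly6G libraries, 1219.7 to 2731 in irradiated libraries and 409.95 to 1175 in sham libraries, and summed macrophage markers 855 to 1672, 846 to 2305 and 357 to 812. Summed over 6 lipofibroblast markers, of which Inmt, Npnt and Limch1 gave most of the sum, levels were 49106 to 60883 in anti-Ly6G libraries, 52499 to 65713 in irradiated libraries and 61678 to 89103 in sham libraries. Of the 6, 3 were called lower in anti-Ly6G against sham and 0 in irradiated against sham, where the sums overlapped. Plin2, the droplet coat gene on that list, averaged 1108 in anti-Ly6G, 1052 in irradiated and 1068 in sham libraries. With the leukocyte covariate, 8 of the 9 calls in anti-Ly6G against sham held (limma adjusted p of 0.00319 to 0.0482) and that of Acsl4 was lost (adjusted p = 0.282). Of the 3 calls against irradiated cells, those of Elovl6 and Gpam were lost in that fit (adjusted p = 0.0703 and 0.0691), Pnpla3 was called (adjusted p = 0.0333), and so was Acsl4 (adjusted p = 0.0444). Beyond this fit, the part of these cells in the results was not tested.

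The responses of the fractions were set against each other in a fit of all 24 libraries, in which each response is a difference within a table. For irradiated minus sham, 0 of 33 genes of the set differed between epithelial and mesenchymal cells by limma, where 0.629% of 15092 genes did. For anti-Ly6G minus irradiated, 0 of 33 differed, where 0.596% did. At an unadjusted p under 0.05 there were 5 and 6, against 13.3% and 11.3% of all genes. The smallest p-values were those of Scd2, whose epithelial response to irradiation exceeded the mesenchymal one by 0.35 ± 0.106 in log2 (limma adjusted p = 0.124), and of Acsl4, whose epithelial response to anti-Ly6G was below the mesenchymal one by 0.51 ± 0.160 (limma adjusted p = 0.184). Each was called when 1 mesenchymal library was left out: Scd2 without sham replicate 2 (adjusted p = 0.0375) and Acsl4 without anti-Ly6G replicate 3 (adjusted p = 0.0338). For irradiated minus sham and anti-Ly6G minus irradiated, a gene called in only 1 fraction is therefore not shown to respond differently in them. The difference between fractions in anti-Ly6G minus sham was not tested.

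Other genes of lipid metabolism were counted from 7 lists with 111 genes in all. In anti-Ly6G against sham mesenchymal cells, 21 of 99 tested were called higher and 10 lower, with a median log2 change of 0.11, where 15.2% of all genes were called and 8.51% called higher. In epithelial cells the same comparison gave 12 higher and 6 lower of 100, with a median of 0.03, where 11.3% of all genes were called and 6.52% called higher. Against irradiated cells, anti-Ly6G gave 5 higher and 0 lower of 99 in mesenchymal cells, where 2.69% of all genes were called, and 0 of 100 in epithelial cells, where 0.475% were. Irradiated against sham gave 4 higher and 3 lower of 99 in mesenchymal cells (3.8% of all genes called) and 2 higher and 2 lower of 100 in epithelial cells (3.14% of all genes called).

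In mesenchymal cells, lipid droplet and lipolysis genes had 5 of 11 called higher and 2 lower in anti-Ly6G against sham, where 15.2% of all genes were called and 8.51% called higher. In epithelium the same list had 4 of 12 called higher and 0 lower, against 11.3% of all genes called and 6.52% called higher: Fitm2, Lipe, Bscl2 and Abhd5, with log2 changes of 0.45, 0.43, 0.30 and 0.29 (limma adjusted p of 0.00456 to 0.0331). In mesenchymal cells Plin4, which coats droplets, averaged 982 ± 299 normalised counts in anti-Ly6G and 397 ± 113 in sham libraries (SD, n = 4 each; limma adjusted p = 0.00642). Abhd5, the coactivator of Pnpla2, averaged 375 ± 114 and 223 ± 23.8 in the same groups (log2 change 0.72, limma adjusted p = 0.00706), and 234 ± 21.6 in irradiated libraries, from which anti-Ly6G libraries also differed (limma adjusted p = 0.0413). G0s2, an inhibitor of Pnpla2, averaged 196 ± 72.6 in anti-Ly6G libraries, against 341 ± 40.7 in sham (log2 change -0.86, limma adjusted p = 0.0151), and these libraries overlapped. Mgll, which splits monoglycerides, was lower too, at 334 ± 51.7 in anti-Ly6G and 496 ± 30.4 in sham libraries (log2 change -0.58, limma adjusted p = 0.0108). Hilpda, Bscl2 and Fitm2 of this list were called higher in anti-Ly6G than in sham mesenchymal cells. Their log2 changes were 0.52, 0.49 and 0.34 (limma adjusted p = 0.0406, 0.00215 and 0.0469), and the libraries overlapped for Hilpda and Fitm2. Whether these changes alter the activity of Pnpla2 was not tested.

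Genes of uptake and binding moved in both directions, with 2 of 13 called higher and 3 lower in anti-Ly6G against sham mesenchymal cells, against 15.2% of all genes called and 8.51% called higher. Angptl4, a secreted inhibitor of Lpl, measured 2895, 2307, 1877 and 3382 normalised counts in anti-Ly6G libraries, 1094, 1479.5, 1229 and 1317 in irradiated libraries, and 1196, 1505, 1347 and 1246 in sham libraries. All anti-Ly6G libraries lay above all others, with log2 changes of 1.00 ± 0.157 against irradiated (limma adjusted p = 0.00476) and 0.95 ± 0.157 against sham (limma adjusted p = 0.00163). Fabp4, a fatty acid-binding protein of adipocytes, endothelium and macrophages, measured 174, 147, 117 and 249.96 in anti-Ly6G libraries, 103, 100.2, 55.9 and 95.1 in irradiated libraries, and 28.4, 55.4, 27.3 and 47.4 in sham libraries. The 3 treatments did not overlap, and the log2 change from sham was 2.10 with anti-Ly6G and 1.17 after irradiation alone (limma adjusted p = 0.000332 and 0.0403). Fabp3 was lower in anti-Ly6G than in sham libraries, at 41.0 ± 14.5 against 84.0 ± 14.5 (log2 change -1.09, limma adjusted p = 0.00896).

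In anti-Ly6G against sham mesenchymal cells, 5 of 19 fatty acid oxidation genes were called higher and 0 lower, against 15.2% of all genes called and 8.51% called higher. In epithelial cells it was 2 of 19 and 0, a share near that of all genes (11.3% called). Pdk4, a kinase that shuts off pyruvate dehydrogenase, measured 1308, 837, 686 and 1733 normalised counts in mesenchymal anti-Ly6G libraries, 335, 905, 457 and 718 in irradiated libraries, and 333, 372, 295 and 343 in sham libraries. Anti-Ly6G libraries did not overlap sham, with a log2 change of 1.67 (limma adjusted p = 0.0109), and in epithelium it was 2.02 (limma adjusted p = 0.0142) from means of 419 ± 232 in anti-Ly6G and 94.7 ± 31.0 in sham libraries. Cpt1c, the carnitine palmitoyltransferase isoform of brain, was higher in both irradiated mesenchymal groups, at 301 ± 12.2 in anti-Ly6G and 318 ± 38.0 in irradiated libraries against 172 ± 6.67 in sham libraries (log2 change 0.81 and 0.88, limma adjusted p = 2.29e-05 and 3.36e-05).

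Among genes that govern or fuel synthesis, Insig1, which holds SREBP proteins in the endoplasmic reticulum, was lower in mesenchymal cells, at 794 ± 65.8 normalised counts in anti-Ly6G and 713 ± 75.1 in irradiated libraries, against 1088 ± 144 in sham libraries (log2 change -0.45 and -0.61, limma adjusted p = 0.00703 and 0.00371). On the same list, Ppard and Rxra were called higher in anti-Ly6G than in sham mesenchymal cells (log2 change 0.31 and 0.29, limma adjusted p = 0.0395 and 0.0211). Idh1, a source of NADPH, averaged 668 ± 61.0 in anti-Ly6G, 463 ± 42.5 in irradiated and 460 ± 59.1 in sham libraries, and was called against both (limma adjusted p = 0.00815 and 0.00167). In epithelium, Pgd of the pentose phosphate pathway was lower in anti-Ly6G than in sham libraries, at 1210.4 ± 25.1 and 1433 ± 20.3 (log2 change -0.24, limma adjusted p = 0.00331). Pcyt1a, which controls phosphatidylcholine synthesis, was lower in both epithelial groups, at 1358 ± 129 in anti-Ly6G and 1366 ± 58.6 in irradiated libraries, against 1730.3 ± 68.1 in sham libraries (log2 change -0.35 and -0.34, limma adjusted p = 0.00167 and 0.00504). Acss1, the mitochondrial relative of Acss2, was lower in the same way, at 1397 ± 66.0 and 1359 ± 90.4 against 1693 ± 70.7 in sham libraries (log2 change -0.28 and -0.32, limma adjusted p = 0.00492 and 0.00444). Of the same lists, Aacs, which activates acetoacetate, was higher in both epithelial groups, at 542 ± 63.4 in anti-Ly6G and 532 ± 73.3 in irradiated libraries, against 398 ± 45.7 in sham libraries (log2 change 0.44 and 0.42, limma adjusted p = 0.0142 and 0.0466). Plpp1, a lipid phosphate phosphatase, Pcyt2 of phosphatidylethanolamine synthesis and the nuclear receptor gene Rxra were higher in anti-Ly6G than in sham epithelium, with log2 changes of 0.55, 0.38 and 0.30 (limma adjusted p of 0.0128 to 0.0186). Gpd1, which makes glycerol-3-phosphate, and Hacd3, a dehydratase of chain elongation, were lower there, with log2 changes of -0.40 and -0.17 (limma adjusted p = 0.00317 and 0.0345).

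**Figure D4:**
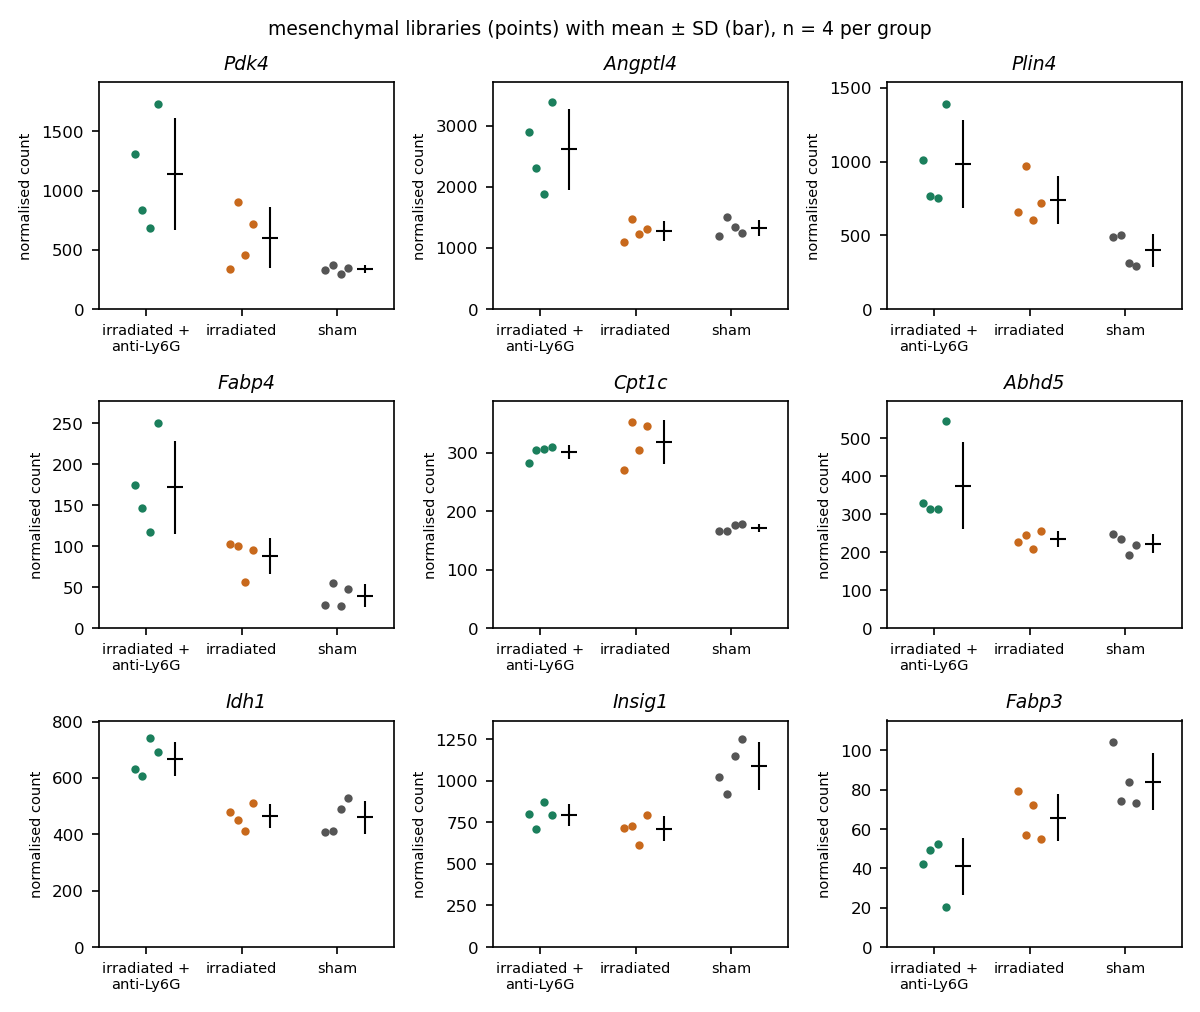
Normalised counts in the 4 mesenchymal libraries of each treatment (points) with mean ± SD (bars), for 9 other lipid genes called in at least 1 mesenchymal comparison; every axis starts at 0. Angptl4, Abhd5 and Idh1 lie above all other libraries with anti-Ly6G, Cpt1c lies above sham in both irradiated groups, Insig1 lies below sham in both irradiated groups, and Fabp3 lies below sham with anti-Ly6G.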

How the data were processed

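Per the submitters' processing notes, reads were handled with cutadapt 1.5, STAR 2.2.2a, SAMtools 1.8, RSEM 1.3.0 and DESeq2 (no version given), on mouse build GRCm38; their settings are not given in the sources used here. The deposited tables, 1 per fraction, hold a signal that the authors made by dividing gene counts by a size factor per library. In each library 100% of the positive values were whole multiples of that library's smallest step, to a tolerance of 0.001. The whole reads recovered in this way were used for edgeR and DESeq2, as alternatives.

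Symbols, positions and exon lengths came from the GENCODE annotation of GRCm38, which named 48435 of 48795 identifiers. The main test used R 4.3.3 with robust limma-trend (limma 3.58.1) on log2(normalised count + 1), a scale that understates changes of low genes, for genes with at least 10 in at least 4 of 12 libraries, with the 3 treatments of a table in 1 fit and Benjamini-Hochberg adjustment over all genes. Differences between fractions were tested in 1 fit of the 24 libraries, on genes that passed in both tables. The scripts were tested on simulated data. Values in every library are given for genes called in any comparison, genes whose libraries did not overlap between treatments, and the 3 highest per kilobase in each fraction. Other lipid genes are named where called, up to the 4 largest changes per list and comparison. The mesenchymal lipid droplet list in anti-Ly6G against sham is an exception, with all called genes named. The genes, lists and markers were chosen with earlier results of these data known. Alternatives were other pseudocounts (0.5 and 8), filters (none, or a mean of at least 50), TMM scaling, edgeR 4.0.16, DESeq2 1.42.0, a replicate block, a leukocyte covariate, 2 treatments alone, and leaving out each library. The labels number the replicates of each group and do not tie the fractions to a mouse. The 36 pairs of libraries of 1 group all differed beyond sampling noise (chi-square per degree of freedom 2.33 to 14.6).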

Additional observations from a re-analysis of the deposited data

Results flagged for a closer look

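Of the genes with values given for every library, 75 groups of 4 libraries were examined for 1 library far from the other 3 (a gap that takes up more of the group's range than Dixon's test allows), and 8 had one, where chance gives about 1 in 20 groups. In mesenchymal cells these were Gpam in anti-Ly6G replicate 4, at 2566 normalised counts, Fads2 in anti-Ly6G replicate 3, at 796, Acsl4 in irradiated replicate 2, at 363, Fads3 in irradiated replicate 1, at 681, and Elovl6 in sham replicate 2, at 109. In epithelial cells they were Lpin2 in anti-Ly6G replicate 4, at 8532, Fasn in sham replicate 1, at 34576, and Scd2 in sham replicate 2, at 10294. The lone library was the highest of its 4 for Gpam, Fads2, Acsl4, Lpin2 and Fasn, and the lowest for Fads3, Elovl6 and Scd2.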

How the results depend on the processing

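Over 506 alternative values of the 23 single-gene calls, 443 kept their direction and call, 63 kept the direction and lost the call, and 0 changed direction. Counts of genes of the set called moved beyond 1.5 times as follows. With the leukocyte covariate, irradiated against sham epithelium gave 0 (3 without it) and anti-Ly6G against sham epithelium 1 (8). DESeq2 gave 1 in anti-Ly6G against irradiated epithelium (0), 1 in irradiated against sham mesenchymal cells (0) and 5 in anti-Ly6G against irradiated mesenchymal cells (3), which added Pnpla2 and Acsl4. Leaving out each library in turn gave 1 to 3 in irradiated against sham epithelium (1 without sham replicate 2 or irradiated replicate 2), 0 to 1 in anti-Ly6G against irradiated epithelium (1 without anti-Ly6G replicate 3 or 4), and 4 to 8 in anti-Ly6G against sham epithelium (4 without anti-Ly6G replicate 1, 5 without sham replicate 3). In mesenchymal cells it gave 0 to 1 in irradiated against sham (1 without irradiated replicate 1, 3 or 4 or anti-Ly6G replicate 4) and 0 to 5 in anti-Ly6G against irradiated. The count in anti-Ly6G against sham mesenchymal cells stayed within 1.5 times, at 7 to 10 (9 with all libraries). For the differences between fractions, leaving out each library gave 0 to 1 in each. The cause of these moves was not tested. Over all genes, edgeR on the recovered reads called 558, 92 and 1792 epithelial and 582, 424 and 2559 mesenchymal genes in irradiated minus sham, anti-Ly6G minus irradiated and anti-Ly6G minus sham, against 522, 79 and 1876 and 631, 448 and 2528 with limma; the counts for genes of the set were the same. DESeq2 called 816, 289 and 1917, and 1055, 785 and 2731.

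Replicate numbers recur in every group, but not every pair of same-numbered libraries deviated together: correlations of their deviations from the group means had a median of 0.04 within each table (1 of 12 pairs over 0.1 in the epithelial, 3 of 12 in the mesenchymal table). Between the fractions the median was 0.11, with 7 of 12 pairs over 0.1 and a highest of 0.25, against a median of -0.02 and 1 of 36 for pairs with other numbers, and replicate 2 had the highest leukocyte sum in all 6 groups. The numbers are a hint of pairing between fractions from the data, not from the labels, and the fit of 24 libraries has no block. A replicate block was added within each fraction, so it does not tie a library to the same-numbered library of the other fraction. It moved the calls of the 24-library fit over all genes to 261 (95) for irradiated minus sham. For anti-Ly6G minus irradiated they moved to 58 (90). Pairing between fractions was not fitted. With the replicate block, genes of the set called were 3, 0 and 8 in the epithelial and 1, 3 and 9 in the mesenchymal comparisons, in the order above, and 0 in each difference between fractions; the added call was Lpin1 in irradiated against sham mesenchymal cells (adjusted p = 0.0303), a comparison in which the block moved all calls to 1048 (631).

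Depth limits the lowest genes: 3 reads, the most that a count of 0 allows, were worth 2.36 to 3.81 normalised counts, so Elovl3 in both fractions, and Elovl6 and Pnpla3 in epithelium, rest on few reads. These limits cover counting error only.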
